A study of Mus musculus with 6 samples.

Results

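The red cell membrane skeleton was followed in the spleen through 9 genes, Slc4a1, Epb42, Ank1, Sptb, Dmtn, Add1, Add2, Tmod1 and Tmcc2. The array reads an mRNA by probe sets, groups of short DNA probes that pair with it, and every probe set that the array annotation gave to exactly 1 of these genes was kept. This selection held 25 of the 45037 probe sets and all 9 genes of the 18193 that the annotation names. Spleen RNA came from male mice, labelled as C57BL/6J (C57BL/6JNarl in the methods of the study) and as 8 weeks old at the start, that ate 1 of 2 diets for 15 weeks, with no genetic alteration named for either group. The 3 control mice received a casein and cornstarch diet with 4% cellulose, and the 3 garlic-fed mice the same diet with 4% lyophilized raw garlic powder. Each mouse gave 1 array, so that the precision of all values is limited to that of 3 arrays in a group.

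A red blood cell has no internal cytoskeleton, and its shape and its resistance to shear rest on a protein net under the membrane. Spectrin tetramers form the strands of this net, short actin filaments tie the strands together at junctions, and ankyrin and the protein of Epb42 link spectrin to the anion exchanger band 3 in the lipid bilayer. The mRNAs are made while erythroblasts mature. In mice the red pulp of the spleen holds such precursors, whereas mature red cells carry almost no mRNA. Inherited defects of ankyrin, spectrin or band 3 cause spherocytosis, in which red cells lose membrane and are removed by the spleen.

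Signals were those of the MAS5 program, on a linear scale, and the groups were compared with limma on log2 signals over the 27022 probe sets above a filter on dim signals, with Benjamini-Hochberg adjustment over all of them. Signals under a floor of 23.5 were set to it. Of the 25 probe sets of the skeleton genes, 23 passed this filter, and each of the 9 genes had at least 1 among them. The ratio of the tail end to the front end of the Gapdh mRNA, a measure of RNA integrity, was 0.801 to 0.881 in control mice, against 0.769 to 0.999 in garlic-fed mice. For the β-actin mRNA the same ratio was 1.199 to 1.233 in control mice, against 1.182 to 1.239 in garlic-fed mice. Pancreatic genes, which do not belong to the spleen, gave on average log2 signals of 13.59, 10.47 and 12.43 in the control mice, against 5.56, 11.59 and 6.11 in the garlic-fed mice. Control mouse 1 and garlic-fed mouse 2 had the most of this signal in their groups, and results with and without these arrays are given below.

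The mRNAs of ankyrin, dematin and band 3 rose in the spleens of garlic-fed mice: Ank1, Dmtn and Slc4a1 each had 1 probe set past an adjusted p of 0.05, with folds of 2.59, 2.04 and 1.65, and no probe set of the 9 genes fell past it. These were 3 of the 23 tested probe sets, beside 0.226% of all tested probe sets that were higher and 0.0111% that were lower at an adjusted p under 0.05 from limma. By the study's criterion, a fold over 1.8 together with a p under 0.05 before adjustment (here that of limma), 9 probe sets of 6 genes were higher and none was lower, beside 0.921% of all tested probe sets that were higher and 0.596% that were lower. The genes were Ank1, Dmtn, Add2, Epb42, Tmod1 and Tmcc2. At an unadjusted p under 0.05 from limma 15 were higher and 0 lower, beside 5.58% and 5.44% of all. In 14 of the 23 the lowest garlic-fed mouse was above the highest control mouse, beside 7.52% of all tested probe sets, and in 0 the groups were apart the other way, beside 9.29% of all. The median log2 fold change of the 23 was 0.72, beside -0.03 for all tested probe sets, and 21 were above 0, beside 43.5% of all. Several of these genes were named by the study from the same arrays, and their direction is therefore no independent evidence. In whole spleen, more erythroid cells and more mRNA for each cell cannot be told apart.

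The count of 3 changed with the arrays and the settings. It was 0 without control mouse 1, 0 without control mouse 2 and 5 without control mouse 3. It was 6 without garlic-fed mouse 1, 1 without garlic-fed mouse 2 and 2 without garlic-fed mouse 3. With all dim probe sets included, without the trend of variance on signal and with the ANOVA of the methods the count was also 0. The 9 probe sets by the study's criterion became 6 to 12 when single arrays were left out, with 6 without garlic-fed mouse 3. Without the array of most pancreatic signal in each group, an alternative chosen after seeing the data, 1 of the skeleton probe sets (Ank1) was higher past the adjusted threshold and 8 met the study's criterion.

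**Figure D1:**
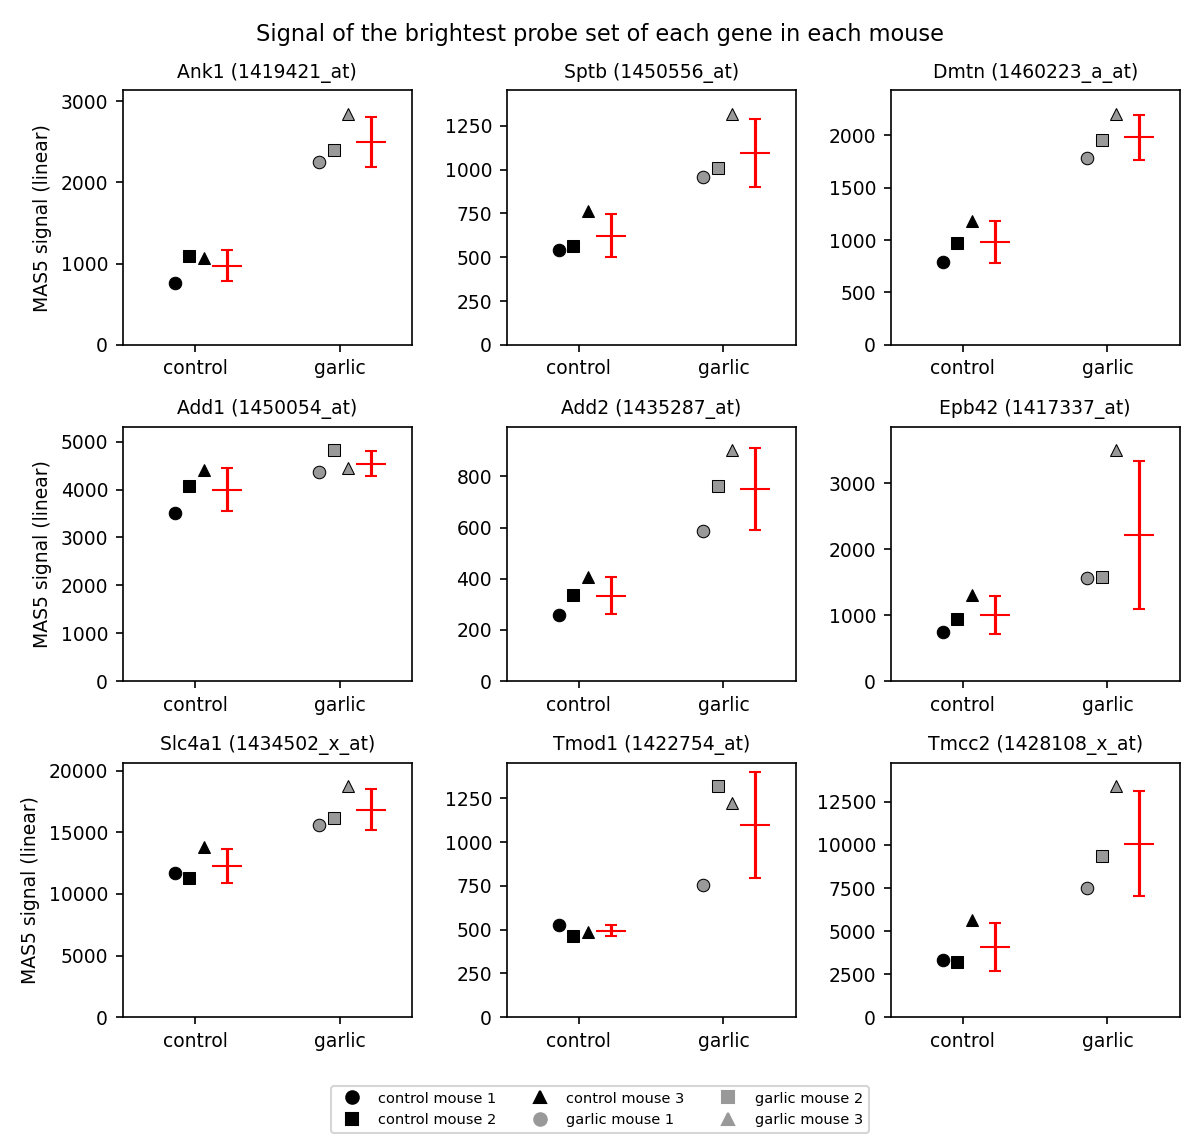
MAS5 signal (linear scale) of the probe set of highest mean log2 signal of each of the 9 genes in each mouse; symbols are single mice, black for control and gray for garlic-fed, and red bars are the mean and SD of 3 mice. The garlic-fed mice lie above all control mice in every panel but that of Add1, and mouse 3 of the garlic group stands apart for Epb42 at 3504.8.

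Band 3, the product of Slc4a1, carries chloride and bicarbonate across the membrane and is the main anchor of the skeleton. Slc4a1 was measured by 3 probe sets. The signal of 1416464_at was 9108.4, 9119.6 and 11116.1 in the control mice, against 14472.3, 16675.1 and 17090.2 in the garlic-fed mice, with a gap between the groups. It rose by 0.72 on the log2 scale, a fold of 1.65 (standard error 0.10, adjusted p = 0.0255 from limma). This stayed under the study's fold of 1.8. Its adjusted p was 0.151 without control mouse 1, 0.131 without control mouse 2 and 0.0623 without garlic-fed mouse 2. The signal of 1434502_x_at, whose suffix marks probes that may also bind other mRNAs, was 11703.2, 11285.9 and 13813.7 in control mice, against 15596.1, 16160.6 and 18758.4 in garlic-fed mice. The groups again did not overlap, and the change of 0.46 on the log2 scale (standard error 0.10) gave an adjusted p of 0.107. The third probe set, 1431743_a_at, was dimmer and less even. It gave 172.8, 211.5 and 519.2 in control mice, against 263.2, 246 and 1139.4 in garlic-fed mice, so that mouse 3 of either group was far above the other mice and the groups overlapped. The log2 fold change was 0.65 (standard error 0.57, adjusted p = 0.741) and became -0.068 without garlic-fed mouse 3.

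The protein of Epb42 is related to the transglutaminases but has no enzyme activity, and it strengthens the link between band 3 and ankyrin. The signal of 1417337_at was 743.3, 948 and 1311.2 in the control mice, against 1567.5, 1569.8 and 3504.8 in the garlic-fed mice. All garlic-fed mice were above all control mice, and garlic-fed mouse 3 was far above the other garlic-fed mice. The log2 fold change of 1.07 met the study's criterion but had a wide spread (standard error 0.30, adjusted p = 0.205), and without garlic-fed mouse 3 it was 0.69. The signal of 1417338_at was 312.2, 374 and 654.2 in control mice, against 567.6, 498.8 and 1612.5 in garlic-fed mice, and here the groups overlapped. Its log2 fold change was 0.86 (standard error 0.41, adjusted p = 0.486), and 0.33 without garlic-fed mouse 3.

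The promoter of Epb42 is shown because it holds a motif that few promoters hold, and those of Sptb and Tmod1 beside it for comparison. In erythroid cells Gata1 binds GATAA, a complex of Gata1 and Tal1 binds an E-box remnant near a GATA site, and Klf1 binds CACCC-like sites. For 6 of the 9 genes (Tmcc2, Epb42, Tmod1, Add1, Add2 and Sptb) RefSeq promoters were at hand, 8 windows in all, and the 250 bases before each start site were searched on both strands for GATAA, for CCNCNCCC and for the composite E-box and GATA motif, which contains GATAA. The letters of the GATA site were found in 2 of the 8 windows and in 22.6% of all 32851 windows of the same length. The motif CCNCNCCC was found in 6 of the 8 windows and in 45.9% of all. The composite motif was found in 1 of the 8, that of Epb42, and in 0.307% of all. It lies on the strand opposite to the gene, from base -226 to base -210 counted back from the start site. These matches describe letters only, and binding was not measured. The sequences below (RefSeq, GRCm38.p6) run 5′ to 3′ on the strand of the gene up to the base before its start site, over 250 bases for Epb42 and the last 130 for Sptb and Tmod1. Capitals mark the motif matches on either strand, which run into each other where they overlap. Epb42 is at chr2:121036878-121037127 (minus strand), Sptb at chr12:76710548-76710677 (minus strand) and Tmod1 at chr4:46039092-46039221 (plus strand), and the latter pair holds CCNCNCCC matches and no GATAA in the window searched.
Epb42: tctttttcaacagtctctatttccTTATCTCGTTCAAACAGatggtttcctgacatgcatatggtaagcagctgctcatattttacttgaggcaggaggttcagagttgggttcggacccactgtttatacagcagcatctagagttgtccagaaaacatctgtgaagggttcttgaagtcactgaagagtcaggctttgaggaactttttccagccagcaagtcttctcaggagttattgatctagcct
Sptb: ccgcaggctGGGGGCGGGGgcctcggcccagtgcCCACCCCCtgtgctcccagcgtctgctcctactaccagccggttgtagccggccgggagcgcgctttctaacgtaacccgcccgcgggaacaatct
Tmod1: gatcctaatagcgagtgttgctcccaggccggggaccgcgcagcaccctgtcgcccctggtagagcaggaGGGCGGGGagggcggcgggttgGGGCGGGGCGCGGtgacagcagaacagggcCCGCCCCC

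Erythroid ankyrin, the product of Ank1, holds spectrin to band 3. The signal of 1419421_at was 758.8, 1095.1 and 1074.6 in the control mice, against 2251.9, 2405.9 and 2848.2 in the garlic-fed mice. The lowest garlic-fed mouse was thus far above the highest control mouse. The log2 fold change was 1.37, a fold of 2.59 with a 95% confidence interval of the log2 value from 1.03 to 1.71 (standard error 0.15, adjusted p = 0.0137 from limma). Among the 27022 tested probe sets it stood at rank 9 by p. Over all alternatives its log2 fold change lay between 1.20 and 1.46 and its adjusted p between 0.0015 and 0.383, with 0.0661 without control mouse 1 and 0.0629 without control mouse 2. A second probe set, 1425677_a_at, gave 316, 461.8 and 486.9 in control mice, against 646.8, 808 and 1193.8 in garlic-fed mice, without overlap. Its log2 fold change of 1.04 met the study's criterion (standard error 0.23, adjusted p = 0.12). The dim probe set 1443291_at gave 66.6, 87.5 and 115.1 in control mice, against 95, 108.5 and 43.4 in garlic-fed mice, with overlapping groups, and its log2 fold change was -0.19 (standard error 0.40, adjusted p = 0.907). The dim probe set 1452512_a_at, with signals of 35.6 to 81.9 in control mice, against 68.2 to 154.1 in garlic-fed mice, lay under the filter.

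β-spectrin, the product of Sptb, is a subunit of the spectrin strands of the net. The signal of 1450556_at was 539.9, 563.2 and 761.9 in control mice, against 958.2, 1007.8 and 1318.8 in garlic-fed mice, without overlap. The log2 fold change of 0.82, a fold of 1.76, did not pass the adjusted threshold (standard error 0.17, adjusted p = 0.0976 from limma). As computed here, it lay just under the study's fold. The study itself counted β1-spectrin among the mRNAs that rose past its criterion on these arrays. It used other software and a one-way ANOVA, and the cause of the difference was not tested. The dimmer probe set 1455226_at gave 84.3, 83.3 and 121.2 in control mice, against 84.6, 103 and 71.3 in garlic-fed mice. The groups overlapped, and the log2 fold change was -0.15 (standard error 0.29, adjusted p = 0.898).

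At the junctions of the net, dematin bundles actin filaments, adducin caps their fast-growing ends and binds spectrin, and tropomodulin 1 caps their slow-growing ends. Dmtn, the gene of dematin, was measured best by 1460223_a_at, with signals of 788.9, 971.8 and 1185.6 in the control mice, against 1782.7, 1956.2 and 2207.4 in the garlic-fed mice. The groups were separated by a wide gap, and the mRNA rose by 1.03 on the log2 scale, a fold of 2.04 (standard error 0.15, adjusted p = 0.036 from limma). The adjusted p was 0.129 without control mouse 1, 0.159 without control mouse 2, and 0.0757 and 0.0503 when garlic-fed mouse 2 or 3 was left out. The probe set 1445439_at of the same gene gave 237.2, 249 and 287.4 in control mice, against 260.8, 245.7 and 294.5 in garlic-fed mice. These overlapped, and the log2 fold change was 0.05, with a 95% confidence interval from -0.31 to 0.42 (adjusted p = 0.945). The dim probe set 1438189_s_at, whose suffix marks probes shared by transcripts of several genes, gave 28.1, 32.4 and 20.5 in control mice, against 89.9, 101 and 163.3 in garlic-fed mice, without overlap. It lay under the filter, and 1 of its control signals lay under the floor. In the fit without the filter its log2 fold change was 2.04 (standard error 0.28, adjusted p = 0.277), with the control signal under the floor set to it.

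Of the subunits of adducin, the β subunit met the study's criterion and the α subunit did not. Erythroid adducin is a tetramer of an α and a β subunit, encoded by Add1 and Add2, and Add1 is also expressed in most other cells, whereas Add2 is expressed mainly in erythroid cells and in brain. Add1 was covered by 3 probe sets, and none passed the adjusted threshold or the study's criterion. The signal of 1450054_at was 3515.7, 4072.9 and 4402.1 in control mice, against 4358.5, 4830.8 and 4443.7 in garlic-fed mice, which overlapped (log2 fold change 0.19, standard error 0.10, adjusted p = 0.531). The highest log2 fold change of Add1 was 0.26, for 1420953_at (adjusted p = 0.44), whose control signals of 1795.2, 1645.9 and 1575.9 lay below the garlic-fed signals of 1823.2, 1905.2 and 2319.4. The last of the 3, 1420954_a_at, had overlapping groups and a log2 fold change of 0.18 (adjusted p = 0.807).

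Add2 had 5 probe sets, all tested and all with a positive log2 fold change, from 0.35 to 1.17. The signal of 1435287_at was 259.8, 337.9 and 405.5 in the control mice, against 585.9, 762 and 904.3 in the garlic-fed mice, without overlap. Its log2 fold change of 1.17, a fold of 2.25, met the study's criterion and missed the adjusted threshold (standard error 0.20, adjusted p = 0.0605), and it passed without garlic-fed mouse 1 (log2 fold change 1.34, adjusted p = 0.0387). The signal of 1431076_at was 140.1, 204.8 and 211 in control mice, against 248, 379.1 and 517.2 in garlic-fed mice, again without overlap (log2 fold change 1.00, standard error 0.27, adjusted p = 0.196). The other 3 did not meet the study's fold, with log2 fold changes of 0.67 (1421975_a_at), 0.63 (1451914_a_at) and 0.35 (1450442_at) and adjusted p of 0.427, 0.44 and 0.546. The 95% confidence interval of the log2 fold change ran from 0.72 to 1.62 for 1435287_at of Add2 and from -0.03 to 0.41 for 1450054_at of Add1. The difference between the genes was not tested.

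Tmod1, the gene of tropomodulin 1, had 1 probe set, 1422754_at. Its signal was 527, 465.8 and 485.2 in the control mice, against 753.4, 1319.4 and 1222.5 in the garlic-fed mice. The control mice lay close together and the garlic-fed mice far apart, with garlic-fed mouse 1 the lowest of its group but above all control mice. The log2 fold change of 1.12, a fold of 2.17, met the study's criterion and missed the adjusted threshold (standard error 0.20, adjusted p = 0.0607), and it was 1.37 without garlic-fed mouse 1 (adjusted p = 0.0075).

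Tmcc2 encodes a membrane protein with coiled coils that is listed here beside the skeleton proteins. It was measured by the probe sets 1428108_x_at, whose suffix again marks probes that may also bind other mRNAs, and 1452666_a_at. Both are listed with the same sequence record, so their like values are no independent evidence. The signal of 1428108_x_at was 3334.4, 3186.2 and 5668.3 in the control mice, against 7473.6, 9334.5 and 13418.2 in the garlic-fed mice. Control mouse 3 and garlic-fed mouse 3 were the highest of their groups, and the groups did not overlap. The signal of 1452666_a_at was 3044.2, 3170.5 and 5930 in the control mice, against 7000.2, 9590.3 and 12636.1 in the garlic-fed mice, with the same mice highest and no overlap. The log2 fold changes were 1.32 (standard error 0.24, adjusted p = 0.0673) and 1.30 (standard error 0.26, adjusted p = 0.0896). Without control mouse 3 they were 1.59 (adjusted p = 0.0302) and 1.61 (adjusted p = 0.0285), and without garlic-fed mouse 1 that of 1428108_x_at was 1.51 (adjusted p = 0.0448).

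**Figure D2:**
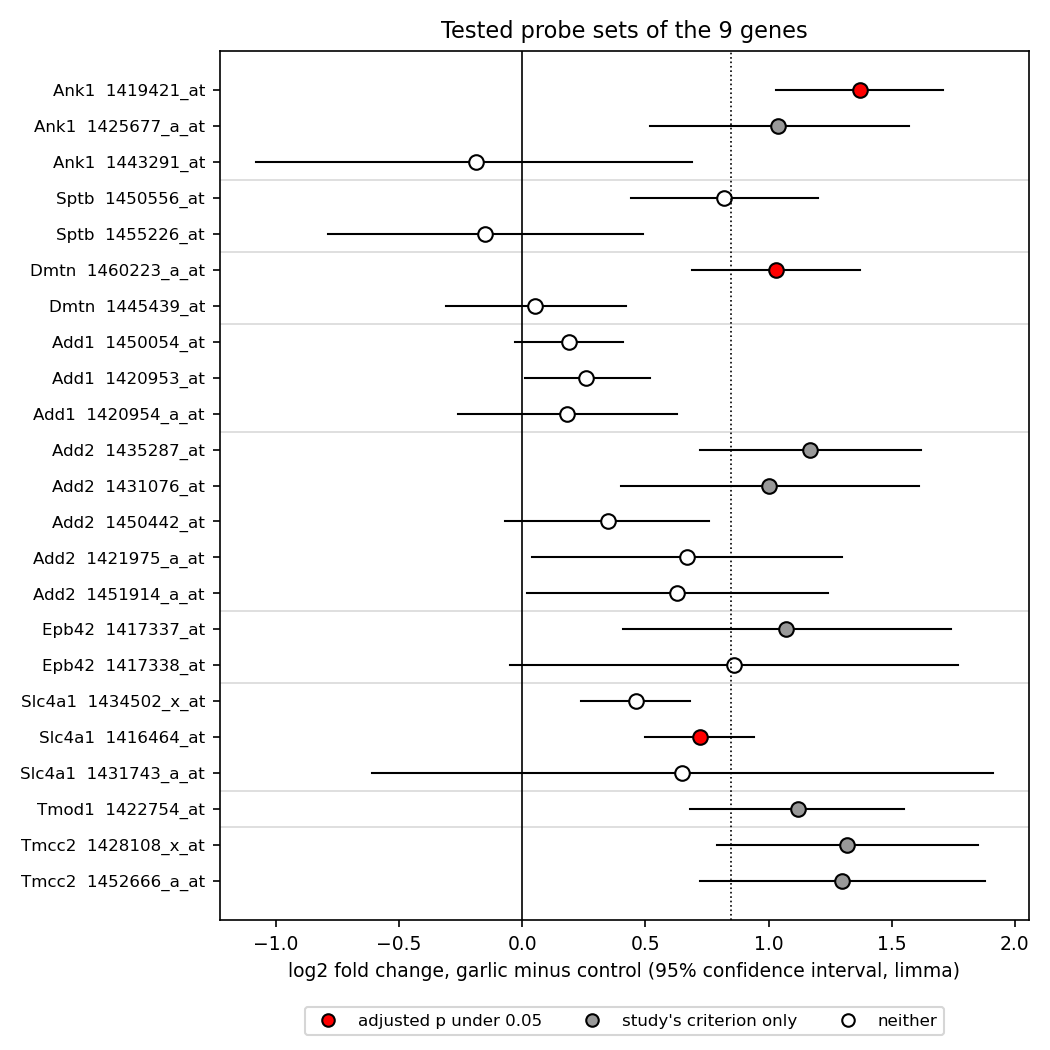
Log2 fold change (garlic minus control, 3 mice each) of the 23 tested probe sets with its 95% confidence interval from limma; red is an adjusted p under 0.05, gray the study's criterion alone, white neither, and the dotted line marks 1.8-fold. The 3 red points belong to Ank1, Dmtn and Slc4a1, and dim probe sets of Ank1 and Sptb lie at -0.19 and -0.15.

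For Ank1, Sptb, Dmtn and Add2 the probe sets of one gene had unlike fold changes, and the difference between them was tested. In each mouse the log2 signal of a probe set was set against that of the brightest tested probe set of its gene, for all 10415 such pairs of 5940 genes, and the pairs were fitted with limma. Of the 14 pairs in 8 of the skeleton genes, 0 differed at an adjusted p under 0.05 from limma and 5 at an unadjusted p under 0.05, beside 0.0096% and 5.26% of all pairs. The brightest probe set was chosen by its signal over all 6 arrays, so nothing is read from the number of differences on either side of 0. For Dmtn, 1445439_at was 0.301, 0.256 and 0.242 times 1460223_a_at in the control mice and 0.146, 0.126 and 0.133 times in the garlic-fed mice. The ratios did not overlap, and the log2 fold changes differed by -0.98 (standard error 0.19, 95% confidence interval -1.40 to -0.56, adjusted p = 0.533 from limma). For Ank1, 1443291_at was 0.0799 to 0.107 times 1419421_at in control mice, against 0.0152 to 0.0451 times in garlic-fed mice, a difference of -1.57 (standard error 0.43, adjusted p = 0.889). For Sptb the ratio of 1455226_at to 1450556_at was 0.148 to 0.159 in control mice, against 0.0541 to 0.102 in garlic-fed mice, a difference of -0.97 (standard error 0.33, adjusted p = 0.889). For Add2 the ratio of 1450442_at to 1435287_at was 0.504 to 0.833 in control mice, against 0.299 to 0.439 in garlic-fed mice, a difference of -0.82 (standard error 0.24, adjusted p = 0.889). For Slc4a1 the probe set 1416464_at had 0.778 to 0.808 times the signal of 1434502_x_at in control mice, against 0.911 to 1.03 times in garlic-fed mice, a difference of 0.26 (standard error 0.07, adjusted p = 0.889).

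Where a probe set lies along its mRNA, and which splice forms it reads, was not analysed here, as the array annotation gives no probe positions. It does give the sequence record behind a probe set. For 5 of the 23 tested probe sets, 1 each of Ank1, Sptb, Dmtn, Slc4a1 and Tmod1, this is a RefSeq mRNA. All 5 had groups that did not overlap and log2 fold changes of 0.72 to 1.37, and the 3 that rose past the adjusted threshold are among them. Of all 4041 tested probe sets listed with a RefSeq mRNA, 8.54% had garlic-fed mice above all control mice, 0.371% were higher past the adjusted threshold, and the median log2 fold change was -0.02. The other 18, listed with another record or none, had log2 fold changes of -0.19 to 1.32 with a median of 0.64. In 9 of them all garlic-fed mice were above all control mice, beside 7.52% of all tested probe sets of any record. By the study's criterion 6 of the 18 and 3 of the 5 were higher, beside 0.921% of all tested probe sets.

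**Figure D3:**
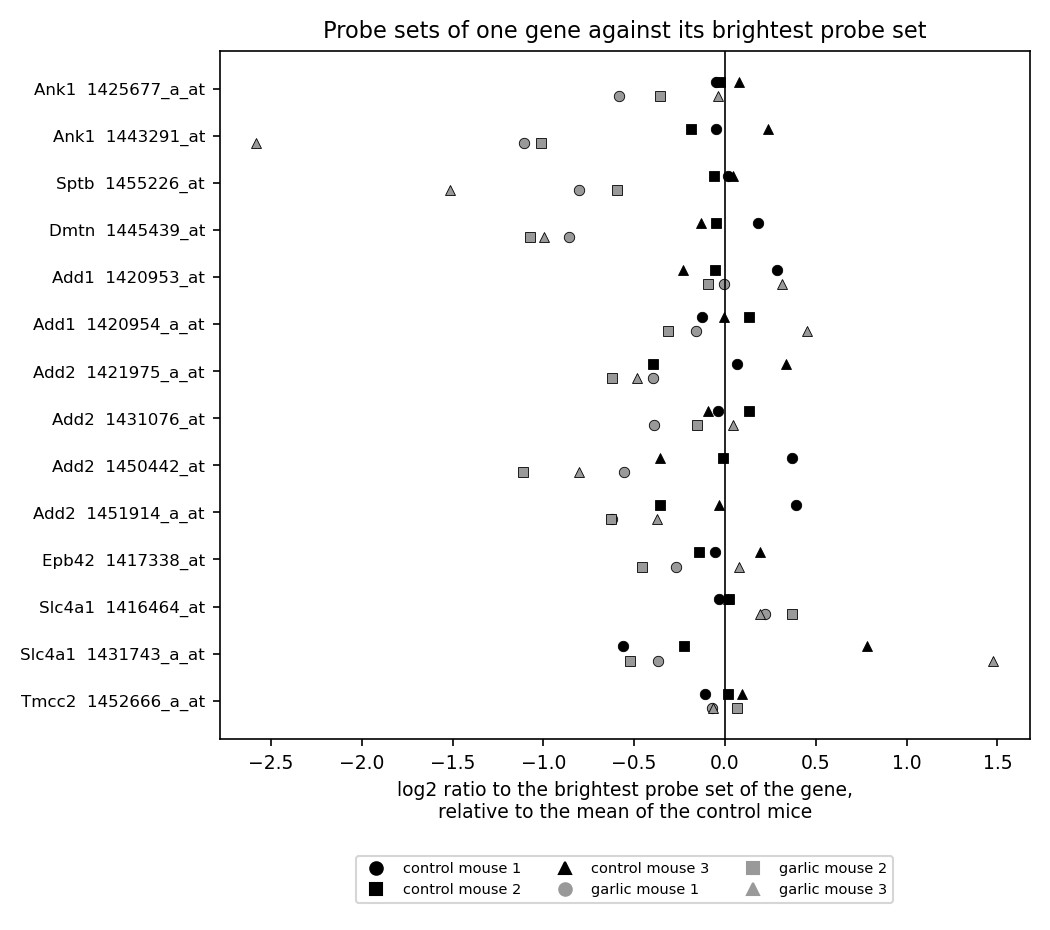
Log2 ratio of a probe set to the brightest probe set of its gene in each mouse, relative to the mean of the 3 control mice, with black symbols for the control group and gray symbols for the garlic group. For 1445439_at of Dmtn, 1443291_at of Ank1 and 1455226_at of Sptb all garlic-fed mice lie left of all control mice, and for 1431743_a_at of Slc4a1 mouse 3 of either group lies to the right.

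The mice of a group differed from each other in a shared way. Relative to the control mean, the median log2 signal of the 9 skeleton genes, each by its brightest probe set, was -0.23, -0.04 and 0.29 in the control mice, against 0.69, 1.01 and 1.31 in the garlic-fed mice. Mouse 3 of both groups had the highest signal of its group in 15 of the 23 tested probe sets, or 65.2%, beside 12.7% of all tested probe sets. For 15 genes of erythroid cells outside the skeleton, among them transcription factors and enzymes of heme synthesis, the same median was -0.23, 0.04 and 0.24 in control mice, against 0.79, 0.88 and 1.22 in garlic-fed mice. By either median the 6 mice had the same order. The mouse numbers are the replicate numbers of the labels, which state no pairing of mice. All 15 had a positive log2 fold change, with a median of 0.97 beside 1.07 for the 9 skeleton genes and -0.03 for all tested probe sets. Of the 15, 6 rose past the adjusted threshold, beside 2 of the 9 (Ank1 and Dmtn) and 0.343% of all genes, and none fell, beside 0.00816% of all genes. By the study's criterion 9 of the 15 and 6 of the 9 were higher, beside 1.08% of all genes. The heme synthesis genes Uros and Cpox had log2 fold changes of 1.34 (adjusted p = 0.0123) and 1.33 (adjusted p = 0.024), and the transcription factor genes Nfe2 and Sox6 had 1.37 (adjusted p = 0.0375) and 1.34 (adjusted p = 0.0186). The study also measured spleen mRNA by qPCR at the same time point. There Cpox and Sox6 were higher in garlic-fed mice at a p under 0.05 by Student's t test, whereas Uros was not. The 15 ranged from 0.20 to 1.37, and the heme synthesis genes Alas2 and Fech, picked after seeing their values, had overlapping groups and log2 fold changes of 0.20 (adjusted p = 0.683) and 0.36 (adjusted p = 0.419).

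**Figure D4:**
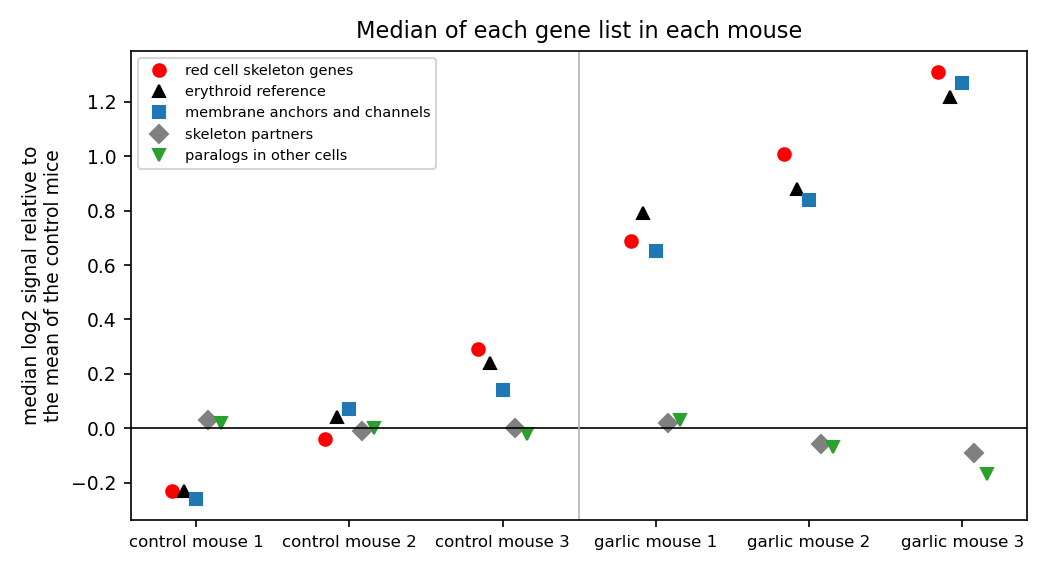
Median log2 signal of 5 gene lists in each mouse, relative to the mean of the 3 control mice. The skeleton genes, the erythroid reference genes and the membrane anchors lie between 0.65 and 1.31 in the garlic-fed mice, and the skeleton partners and paralogs between -0.17 and 0.03.

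None of the other genes of the net passed the test. Of 12 listed partners, the 10 named in the annotation were tested, and 0 passed the adjusted threshold in either direction from limma, with a median log2 fold change of -0.04 and a range from -0.21 to 0.18, and 0 had an unadjusted p under 0.05. Most of these genes are expressed in all cells of the spleen. Actb and Actg1, which encode the cytoplasmic actins, had log2 fold changes of 0.02 (adjusted p = 0.937) and -0.04 (adjusted p = 0.883). Among the paralogs that serve other cells, 17 of 24 could be tested, and 0 passed in either direction from limma, with 0 at an unadjusted p under 0.05. Their median was -0.09 and their range -0.30 to 0.34. Add3 and Tmod3 stand in both lists, so the partners and the paralogs are not fully separate. Sptbn1, the gene of the β-spectrin of other cells, stood at a log2 fold change of -0.10 (adjusted p = 0.831), and Ablim1, which encodes an actin-binding protein with a headpiece like that of dematin, one of -0.19 (adjusted p = 0.675). Add3, the gene of γ-adducin, which replaces the β subunit in other cells, had one of -0.21 (adjusted p = 0.613) and was picked after seeing this value.

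Genes of other red cell membrane proteins and channels, several of them bound to the net, were read as well. Of the 11 tested, 6 rose past the adjusted threshold, beside 0.343% of all genes, and none fell, beside 0.00816%. Their log2 fold changes had a median of 0.99 and ranged from -0.23 to 1.40, with 9 above 0. Slc2a1 (-0.11, all garlic-fed mice below all control mice) and Xk (-0.23, overlapping groups) were below 0 and were picked after seeing their values. Kel, the gene of the Kell protein, stood at a log2 fold change of 1.40 (adjusted p = 0.0243), Icam4, the gene of a blood group adhesion protein, one of 1.31 (adjusted p = 0.0466), Ermap, the gene of an erythroid membrane protein, one of 1.27 (adjusted p = 0.0139) and Aqp1, the gene of aquaporin 1, one of 1.06 (adjusted p = 0.0369).

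**Figure D5:**
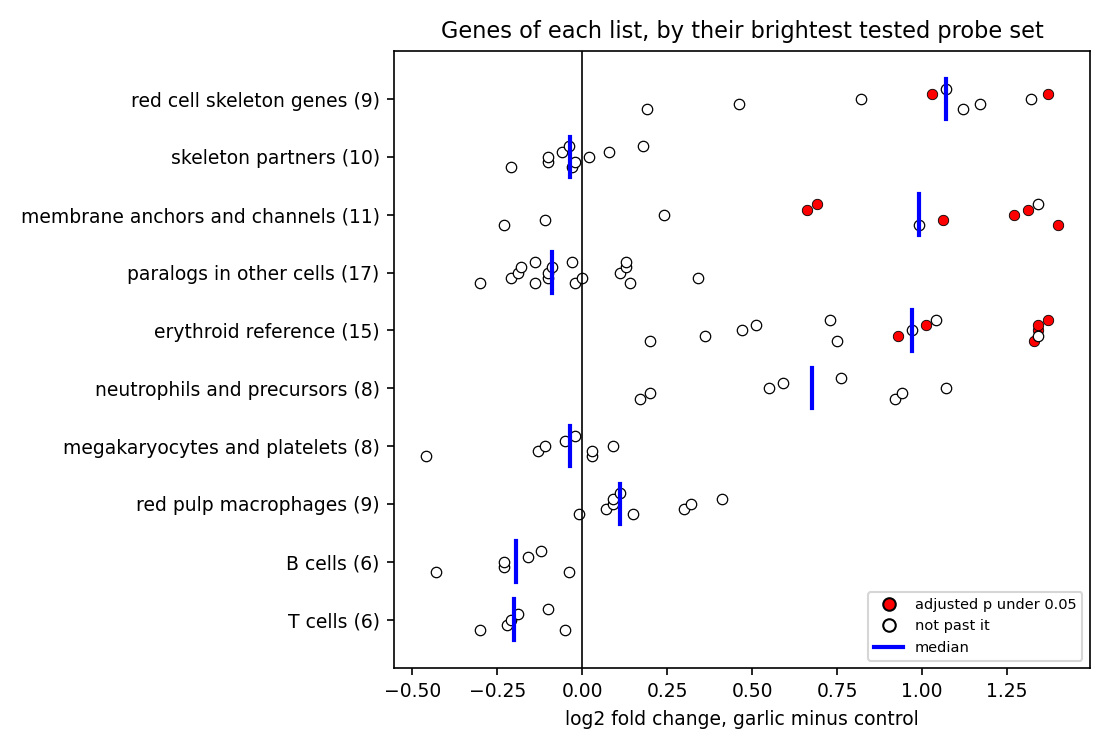
Log2 fold change (garlic minus control) of each tested gene, by its brightest probe set, in 10 gene lists, with the number of genes in brackets; red points passed an adjusted p under 0.05 and blue bars are medians. The skeleton genes, the membrane anchors and the erythroid reference have medians of 1.07, 0.99 and 0.97, whereas the skeleton partners and the paralogs lie near 0.

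Over the 6 arrays, the genes most like the skeleton genes in their pattern were Pigq, Dnajb2, Ccnf, Glrx5 and Tspan8. Likeness was Pearson's r between the log2 signal of a gene and the mean of the 9 centered skeleton genes, among 12262 genes, and it was 0.996 to 0.998 for these 5. Pigq takes part in the synthesis of membrane anchors, Dnajb2 is a cochaperone, Ccnf encodes cyclin F, Glrx5 works in the assembly of iron-sulfur clusters, and Tspan8 encodes a tetraspanin. Their log2 fold changes were 0.69, 0.82, 0.83, 0.57 and 1.34, and Tspan8 passed the adjusted threshold (adjusted p = 0.0375). The 6 points fall into the diet groups, so that genes with a like difference between the diets score high, and 206 genes outside the skeleton had an r above 0.95. Of the skeleton genes themselves, Add2 (0.995) and Sptb (0.990) were the most like their mean and Add1 (0.792) the least. Each skeleton gene is part of that mean, so these r cannot be set beside those of the other genes.

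Markers of other cells were read beside these results. All 12 genes of B cells and T cells named in the annotation passed the filter on dim signals, as a spleen would have them. Their lists, 6 tested genes each, had a median log2 fold change of -0.20, with all 12 genes below 0 and 0 past the adjusted threshold from limma (3 of the B cell genes at an unadjusted p under 0.05). The summed signal of the B cell genes was 54534 to 60651 in control mice, against 49578 to 55780 in garlic-fed mice, and that of the T cell genes 11938 to 12743 against 10451 to 12183. Their brightest genes were Cd79b (-0.23, adjusted p = 0.36) and Ms4a1 (-0.04, adjusted p = 0.908) of B cells and Cd3d (-0.10, adjusted p = 0.794) and Cd3g (-0.19, adjusted p = 0.552) of T cells, as log2 fold changes. For Cd22, Cd3e, Cd3g and Cd4, picked after seeing their values, all garlic-fed mice were below all control mice. This held for 9.29% of all tested probe sets.

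For 9 genes of red pulp macrophages, which take up old red cells, the median log2 fold change was 0.11 (summed signal 84452 to 90134 in control mice, against 87206 to 99370), with Csf1r at 0.07 (adjusted p = 0.839) and Lyz2 at -0.01 (adjusted p = 0.979). Of the 9, 8 were above 0 and 3 had an unadjusted p under 0.05 from limma: Adgre1 (0.41), Hmox1 (0.32) and Spic (0.30), picked after seeing their values. For 8 genes of megakaryocytes and platelets the median was -0.03 (9053 to 13429, against 10692 to 13368), with Pf4 at 0.09 (adjusted p = 0.907) and Ppbp at 0.03 (adjusted p = 0.957). For 8 genes of neutrophils and their precursors the median was 0.67, with all 8 above 0 and a summed signal of 15039 to 18791 in control mice, against 18010 to 24387 in garlic-fed mice. The genes of highest signal, S100a8 and S100a9, stood at 0.20 (adjusted p = 0.637) and 0.17 (adjusted p = 0.694). In 5 of the 8, picked after seeing their values, all garlic-fed mice were above all control mice, beside 7.52% of all tested probe sets. These were Prtn3 (1.07), Mpo (0.94), Elane (0.92), Camp (0.76) and Ngp (0.59), which encode granule proteins. The same 5 were higher at an unadjusted p under 0.05 from limma, beside 5.58% of all tested probe sets. By the study's criterion 3 of the 8 were higher, beside 1.08% of all genes. No gene of these 3 lists passed the adjusted threshold.

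Of 5 tested fat tissue genes none passed, and the median log2 fold change was 0.67 (summed signal 10741 to 11323 in control mice, against 8979 to 20795), with Car3 at 0.67 (adjusted p = 0.639) and Scd1 at 0.31 (adjusted p = 0.601). By the study's criterion 1 of the 5 was higher, beside 1.08% of all genes. This was Fabp4 (1.02, overlapping groups), picked after seeing its value. The 10 tested pancreatic genes had a median of -4.74 (17082 to 130684, against 2070 to 33813), with Prss2 at -3.72 (adjusted p = 0.231) and Cela1 at -1.79 (adjusted p = 0.269). They ranged from -5.44 to -1.79, and none passed the adjusted threshold. All 10 were lower by the study's criterion, beside 0.546% of all genes. At an unadjusted p under 0.05 from limma all 10 were lower too, beside 5.44% of all tested probe sets. The part of these cells in the differences of the skeleton genes was not tested. Skeletal muscle makes a short product of Ank1 and also uses tropomodulin. Of 9 muscle genes, 7, among them Acta1, Ckm and Mb, were under the filter, with signals of 1.5 to 172 over all arrays, and Des and Mylpf stood at 0.15 (adjusted p = 0.788) and 0.11 (adjusted p = 0.897).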

How the data were processed

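Spleen RNA of 3 control and 3 garlic-fed mice was measured on Affymetrix mouse arrays, 1 array for each mouse. The intensity values, linear MAS5 signals, had been computed and deposited by the authors. Their trimmed mean (2% left out at each end) was 500 in all arrays, a scaling read here from the values, and the MAS5 version is not given in the sources used here. Probe sets share no scale, so their levels were not compared, and ratios of probe sets within a mouse served only to compare those ratios between diets. The 64 control probe sets were left out. Of the 45037 others, 34945 had 1 gene in the annotation (2016), 34741 of these matched a RefSeq gene by identifier, with 0 names changed. The 20th percentile (23.5) served as a floor for signals, log2 was taken, and probe sets with a mean at or under the 40th percentile (6.08) were not tested. Diet groups were compared by lmFit and eBayes (trend on mean signal) of limma 3.58.1, run in R 4.3.3; pairs of probe sets of one gene were fitted likewise, with the mean log2 signal of the dimmer one as trend. A gene stood by its tested probe set of highest mean log2 signal. Tables and figures were made with Python 3.11.15 and matplotlib 3.10.9. The procedure was tested on simulated data.

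The 9 genes, the lists and the alternatives were chosen with earlier results of these data known. Named are all probe sets of the 9 genes. Of each other list, the text names the 4 most changed among the genes that passed the adjusted threshold, or else the 2 of highest signal, and beside them the 5 genes most like the 9. Of 137 genes on the other lists, 18 were not named in the annotation and were not analysed here. Alternatives were other normalizations, floors, filters, variance models, the ANOVA of the methods (log2 or linear signals), a block for the replicate number, the mean of the probe sets of a gene, and leaving out each array. Those on pancreatic signal were chosen after seeing the data.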

Additional observations from a re-analysis of the deposited data

How the results depend on the processing

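With 3 arrays in a group the number of calls depended on the variance model and on single arrays. Every probe set of the 9 genes that met the study's criterion kept a positive fold change under all alternatives. They had met it by their fold in these same arrays, so that the kept sign is no independent support. The probe sets of the 9 genes that were higher at an adjusted p under 0.05 (3), all that were higher (61) and all that were lower (3) numbered 7, 147 and 4 after median centring of the arrays, 5, 79 and 6 with a floor at the 40th percentile, and 0, 4 and 7 without the filter. They were 0, 0 and 0 without the trend of variance, with the ANOVA on log2 or on linear signals, and with pancreatic signal as a covariate, which overlaps the diet. Without the array of most pancreatic signal in each group they were 1, 2 and 26. When single arrays were left out they ranged from 0 to 6, from 0 to 106 and from 0 to 34. With the replicate number as a block they were 12, 270 and 25. The labels state no pairing of mice. Correlations of the deviations from the group mean were 0.001, -0.176 and 0.078 for same-numbered mice, and -0.154 to 0.159 for the others. With 3 mice in a group these values cannot decide whether the numbers pair mice. The cause of these shifts was not tested. The count by the study's criterion (9) was 6 to 12.

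Some log2 values that had not passed the adjusted threshold changed sign, most of them near 0, and that of 1431743_a_at (Slc4a1) from 0.65, or from 0.20 as a difference within the gene. With pancreatic signal as a covariate they were 0.15 for 1443291_at (Ank1), 0.12 for 1455226_at (Sptb), -0.056 for 1445439_at (Dmtn) and -0.10 for 1420954_a_at (Add1), and, as differences within a gene, -0.42 for 1431743_a_at (Slc4a1) and 0.032 for 1452666_a_at (Tmcc2). With a floor at the 40th percentile 1443291_at was at 0.011. The difference of 1420954_a_at within Add1 was 0.019 after quantile normalization and 0.083 without the arrays of most pancreatic signal. With single arrays left out the fold changes ranged from -0.45 to 0.21 for 1443291_at, from -0.29 to 0.026 for 1455226_at, from -0.022 to 0.13 for 1445439_at, from -0.033 to 0.29 for 1420954_a_at and from -0.068 to 1.13 for 1431743_a_at. The differences within a gene ranged from -0.45 to 0.59 for 1431743_a_at, from -0.24 to 0.15 for 1420954_a_at, from -0.047 to 0.22 for 1420953_at (Add1) and from -0.076 to 0.022 for 1452666_a_at. Averaging the tested probe sets of a gene gave 0.74 for Ank1, 0.33 for Sptb, 0.54 for Dmtn, 0.76 for Add2 and 0.61 for Slc4a1. No pair of probe sets of the 9 genes passed the adjusted threshold of limma in any setting.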
